A study of Mus musculus with 9 samples.

Results

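Blood of mouse embryos carrying 1 ΔC95 allele of Cbfb was compared with blood of their wild-type littermates. The comparison uses the 3 arrays titled Cbfb+/ΔC95 and the 3 titled Cbfb+/+, which are 6 of the 9 arrays of the study. The other 3 arrays, of CbfbΔC95/ΔC95 blood, lend their spread to the fit and are set beside the genes that changed. All embryos were at E12.5, on a mixed C57BL6/129SvEv background, and came from crosses of heterozygous parents. Peripheral blood was pooled from 8 to 10 embryos of 1 genotype and hybridized to Affymetrix whole-genome mouse arrays. Nothing in the labels tells if each array had a pool of its own, and the spread between arrays that the p-values rest on may therefore be technical. Embryos of both sexes may be in a pool, since the labels give no sex.

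The protein CBFβ, encoded by Cbfb, does not touch DNA itself but steadies its partners, the Runx proteins, on it, and together they form core binding factor. In acute myeloid leukaemia with an inversion of chromosome 16 the gene is fused to that of smooth muscle myosin heavy chain, Myh11, and the study's title names the tail of that fusion protein, CBFβ-SMMHC. The labels name ΔC95 without describing it. At this stage mouse blood is mostly made of large nucleated red cells from the yolk sac, which still divide while they fill with embryonic globin, along with a few macrophages, megakaryocytes and progenitors.

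Each value is a log2 level on the array scale, and a difference of 1 is 2-fold. Levels are relative within an array, and a lower level cannot tell fewer cells of a type from less RNA per cell. Over 45037 probe sets, arrays correlated at r of 0.9976 to 0.9978 within wild type, at 0.9971 to 0.9978 within heterozygous and at 0.9941 to 0.9951 between these genotypes. Array medians were 4.27 in wild type and 4.28 in heterozygous blood, and the median difference over all 18193 genes was 0.01. Signals for the 5′ and 3′ ends of Actb differed by 1.20 in wild-type and 1.21 in heterozygous arrays, a measure of RNA integrity. The poly-A spike-ins, bacterial RNAs added before labelling, were higher in heterozygous arrays by 0.88, with means of 11.26 ± 0.00 and 10.38 ± 0.02 (SD, n = 3 each). With these spike-ins set equal, 13 genes would be called higher and 18137 lower, with a median shift of -0.87. The directions below are therefore those on the deposited scale, relative to the other genes of an array, and apart from those 13 genes no rise is a call with the spike-ins set equal.

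The embryos with 1 ΔC95 allele had blood in which 2152 of 18193 genes (11.8%) differed from wild type at an adjusted p below 0.05, by limma with Benjamini-Hochberg adjustment over all probe sets. Of these, 871 (4.79%) were higher and 1281 (7.04%) lower. By probe set, 3855 of 45037 were called (8.56%), 1536 higher (3.41%) and 2319 lower (5.15%). Most changes were small. A total of 1724 called genes differed by under 0.5, 402 by 0.5 to 1, and only 14 rose and 12 fell by 2-fold or more. The median change was 0.34 among genes called higher and -0.37 among those called lower. Arrays of the genotypes did not overlap for 5440 genes (29.9%). Calls came mainly from well-expressed genes. With genes split into 4 equal groups by wild-type level, 1.82% were called in the lowest group and 32.3% in the highest. Lists of well-expressed genes are to be read beside that 32.3% as well as beside 11.8%. No list was compared with genes of like level. The count of higher genes fell to 576 without wild-type replicate 3 and to 574 without heterozygous replicate 2. Of 1348 called genes with over 1 probe set, 543 had another called in the same direction and 4 in the opposite one.

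**Figure D1:**
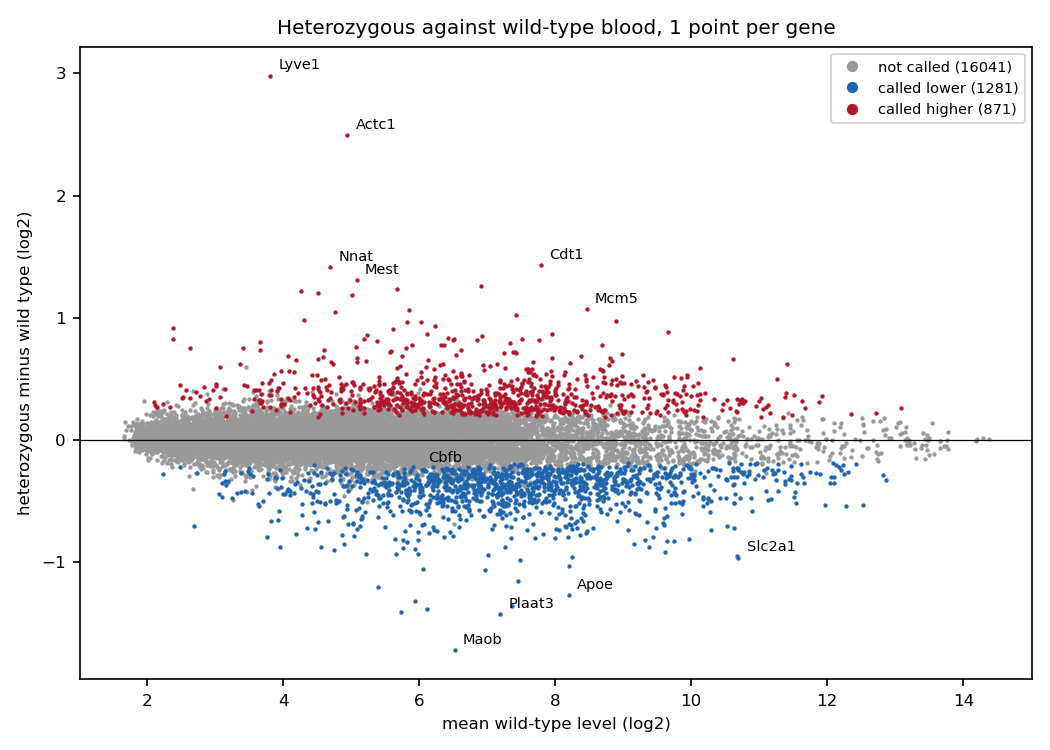
Mean wild-type level (log2, x axis) against the heterozygous minus wild-type difference (log2, y axis) for 18193 genes, 1 point each, with 871 genes called higher in red and 1281 called lower in blue. Lyve1 and Actc1 lie at the top, at 2.98 and 2.50, and Maob at the bottom, at -1.72.

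The targeted gene itself gave levels of 6.00, 6.04 and 5.98 in wild-type and 5.73, 5.80 and 5.79 in heterozygous arrays. Every heterozygous array was below every wild-type array, but the difference of -0.23 ± 0.08 (SE) did not pass the test across all probe sets (limma, adjusted p = 0.0928). Cbfb was lower again in homozygous arrays, by 0.67 against heterozygous ones (adjusted p = 9.57e-05). Where the probes lie within the gene, and what the allele removes, is not given in the labels, so this probe set is no check of genotype. Runx1, the partner needed for definitive blood formation, differed by 0.07 ± 0.12 (adjusted p = 0.837), and its arrays overlapped between the genotypes. Runx3 differed by 0.14 and Myh11 by 0.02, neither past the test (adjusted p = 0.366 and 0.937). The list of core binding factor and fusion partner genes, which also holds Hdac8, Tle1, Tle3 and Tle4, had 11 measured members. Of these Runx1t1 was called, and it was lower (9.1% called, against 11.8% of all genes). Runx1t1 encodes the corepressor ETO, itself a fusion partner of RUNX1 in leukaemia. It stood at 7.18, 7.10 and 7.29 in wild-type and 6.67, 6.55 and 6.53 in heterozygous arrays, a difference of -0.61 ± 0.07 (adjusted p = 0.000297), with no overlap. Its other 5 probe sets differed by -0.22 to -0.02 and were not called. Cbfa2t3, the family member that works in the erythroid Gata1 and Tal1 complex, differed by -0.02.

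All 6 genes of the Mcm ring, which opens DNA for replication, rose in heterozygous blood. Licensing begins when the origin recognition complex, with Cdc6 and Cdt1, loads the ring of Mcm2 to Mcm7 onto DNA in G1, and the ring is switched on at the start of S phase. Of 24 measured licensing genes 9 rose and 2 fell (45.8% called, against 11.8% of all genes), with a median difference of 0.14. The 9 were Cdt1, Cdc6, Gins1 and all members of the Mcm2 to Mcm7 ring. Cdt1, the loading factor, rose from 7.75, 7.83 and 7.78 to 9.23, 9.24 and 9.18, which is 2.69-fold (difference 1.43 ± 0.05, adjusted p = 1.59e-07). Cdc6, its partner in loading, rose from 5.70, 5.70 and 5.65 to 6.97, 6.96 and 6.82, or 2.35-fold. Arrays of the genotypes lay more than 1 log2 unit apart for both genes. The ring subunits Mcm5 and Mcm6 rose by 1.07 ± 0.06 and 1.03 ± 0.06, to means of 9.53 and 8.46. Mcm4 rose by 0.84, Mcm7 by 0.77, Mcm2 by 0.53 and Mcm3 by 0.41. The 2 that fell were Orc4, a subunit of the origin recognition complex, at -0.46, and Dbf4, which activates the Cdc7 kinase, at -0.35. The Dbf4 call was lost without wild-type replicate 2 or 3 or heterozygous replicate 2 or 3. Of 3 Cdt1 probe sets, 1 differed by only 0.04, and 1 of 3 for Mcm6 by 0.33, uncalled.

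Promoters of the 4 licensing genes with the largest rises are shown because these genes moved together and because E2F proteins are the classical regulators of this class. Each line gives the 250 bases before the RefSeq start on GRCm38.p6, 5′ to 3′ on the gene's strand, with matches to TTTCCCGC, TTTGGCGC or TTTCGCGC on either strand in capitals. The stretches are chr8:122567765-122568014, plus strand for Cdt1, chr11:98907901-98908150, plus strand for Cdc6, chr8:75109259-75109508, plus strand for Mcm5 and chr1:128359706-128359955, minus strand for Mcm6.
Cdt1: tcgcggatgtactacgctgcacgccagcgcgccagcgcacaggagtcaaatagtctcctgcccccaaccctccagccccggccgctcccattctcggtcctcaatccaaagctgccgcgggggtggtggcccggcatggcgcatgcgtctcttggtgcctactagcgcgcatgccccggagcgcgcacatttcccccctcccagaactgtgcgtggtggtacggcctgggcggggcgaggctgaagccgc
Cdc6: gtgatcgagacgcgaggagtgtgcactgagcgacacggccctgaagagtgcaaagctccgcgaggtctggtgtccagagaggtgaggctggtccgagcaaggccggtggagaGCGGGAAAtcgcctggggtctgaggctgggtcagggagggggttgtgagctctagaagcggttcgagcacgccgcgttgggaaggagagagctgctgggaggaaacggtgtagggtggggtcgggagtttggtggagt
Mcm5: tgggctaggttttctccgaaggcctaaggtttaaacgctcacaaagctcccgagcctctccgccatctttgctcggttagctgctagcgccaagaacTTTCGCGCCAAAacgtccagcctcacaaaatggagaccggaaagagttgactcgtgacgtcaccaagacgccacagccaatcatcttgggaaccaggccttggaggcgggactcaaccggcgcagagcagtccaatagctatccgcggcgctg
Mcm6: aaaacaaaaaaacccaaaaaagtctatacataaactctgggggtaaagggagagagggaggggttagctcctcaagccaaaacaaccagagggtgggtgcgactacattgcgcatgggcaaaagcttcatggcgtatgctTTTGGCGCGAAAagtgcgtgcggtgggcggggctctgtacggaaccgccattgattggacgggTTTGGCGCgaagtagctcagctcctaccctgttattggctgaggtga
Cdc6 has 1 match, on the other strand. Mcm5 has 2 overlapping matches and Mcm6 has 3, of which 2 overlap. None of the 3 letter strings is in the Cdt1 window. Such matches were in 7 of the 19 licensing genes with a promoter in the table (36.8%) and in 5 of 33 DNA synthesis genes (15.2%). They were in 2.72% of the 14452 array genes with a promoter there and in 1.78% of all 27025 genes with one. Promoters on 1 chromosome were left out of these counts. A match is a string of letters and not a measured binding site.

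DNA synthesis genes were called in 1 direction. Of 40 measured genes for the fork, its building blocks and S-phase chromatin, 17 rose and none fell, with a median of 0.23. That is 42.5% called, against 11.8% of all genes. Leaving out single arrays gave 15 to 18 rises. Pcna, the sliding clamp of DNA polymerase, went from 10.65, 10.61 and 10.59 to 11.26, 11.28 and 11.28, a rise of 0.66 ± 0.05 (adjusted p = 3.01e-05). Rfc3, part of the loader of that clamp, rose by 0.86, and Pold2, a subunit of polymerase delta, by 0.72. Rpa2, which coats single-stranded DNA, rose by 0.60 and was higher by both of its probe sets. Uhrf1 and Dnmt1, which copy DNA methylation behind the fork, rose by 0.58 and 0.50. Some members that serve the same fork were close to wild type, such as Rrm1 at -0.06 and Pola1 at 0.03, neither called.

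G1 regulators split. Of 24, 3 rose and 4 fell (29.2% called, against 11.8% of all genes). Ccnd2, a D-type cyclin that responds to growth signals, rose from 6.02, 5.90 and 6.14 to 7.00, 6.95 and 7.00 (0.96 ± 0.07, adjusted p = 1.03e-05), and 5 of its 7 probe sets were called higher. Its kinase Cdk4 rose by 0.62 with all 3 probe sets called. Ccnd3, the D-type cyclin most abundant here, at 11.46 in wild type, differed by -0.03. Tfdp2, a dimerization partner of E2F proteins, fell from 9.67, 9.67 and 9.60 to 8.84, 8.84 and 8.77, which is -0.83 ± 0.05 (adjusted p = 6.77e-06). E2f2 and E2f5 fell by 0.39 and 0.42, and the repressor E2f7 rose by 0.48. Rb1 fell by 0.27, a call lost without wild-type replicate 2 or 3 or heterozygous replicate 2.

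Genes of mitosis were called mostly lower. Of 50 measured mitosis and spindle genes 27 fell and 1 rose (56.0% called, against 11.8% of all genes), with a median of -0.25. Leaving out single arrays gave 21 to 28 falls. Nusap1, which bundles spindle microtubules around chromosomes, fell from 9.97, 9.98 and 9.94 to 9.14, 9.18 and 9.13, or 1.75-fold (adjusted p = 1.25e-05). Hmmr, a spindle-associated hyaluronan receptor, fell by 0.69 ± 0.06, and 4 of its 5 probe sets were called lower. The kinetochore motor Cenpe fell by 0.55 and the mitotic kinesin Kif20b by 0.90, although the other probe sets of each differed by -0.13 to 0.05. The condensin subunits Smc2 and Smc4 fell by 0.50 and 0.40. Ncaph, also of condensin, was the single rise, at 0.25, a call lost without wild-type replicate 1 or 2 or heterozygous replicate 2. Core regulators differed less. Cdk1 fell by 0.28 and Ccnb2 by 0.29, while Plk1, Aurkb, Cdc20 and Birc5 differed by 0.06, 0.15, 0.15 and 0.03, none called.

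**Figure D2:**
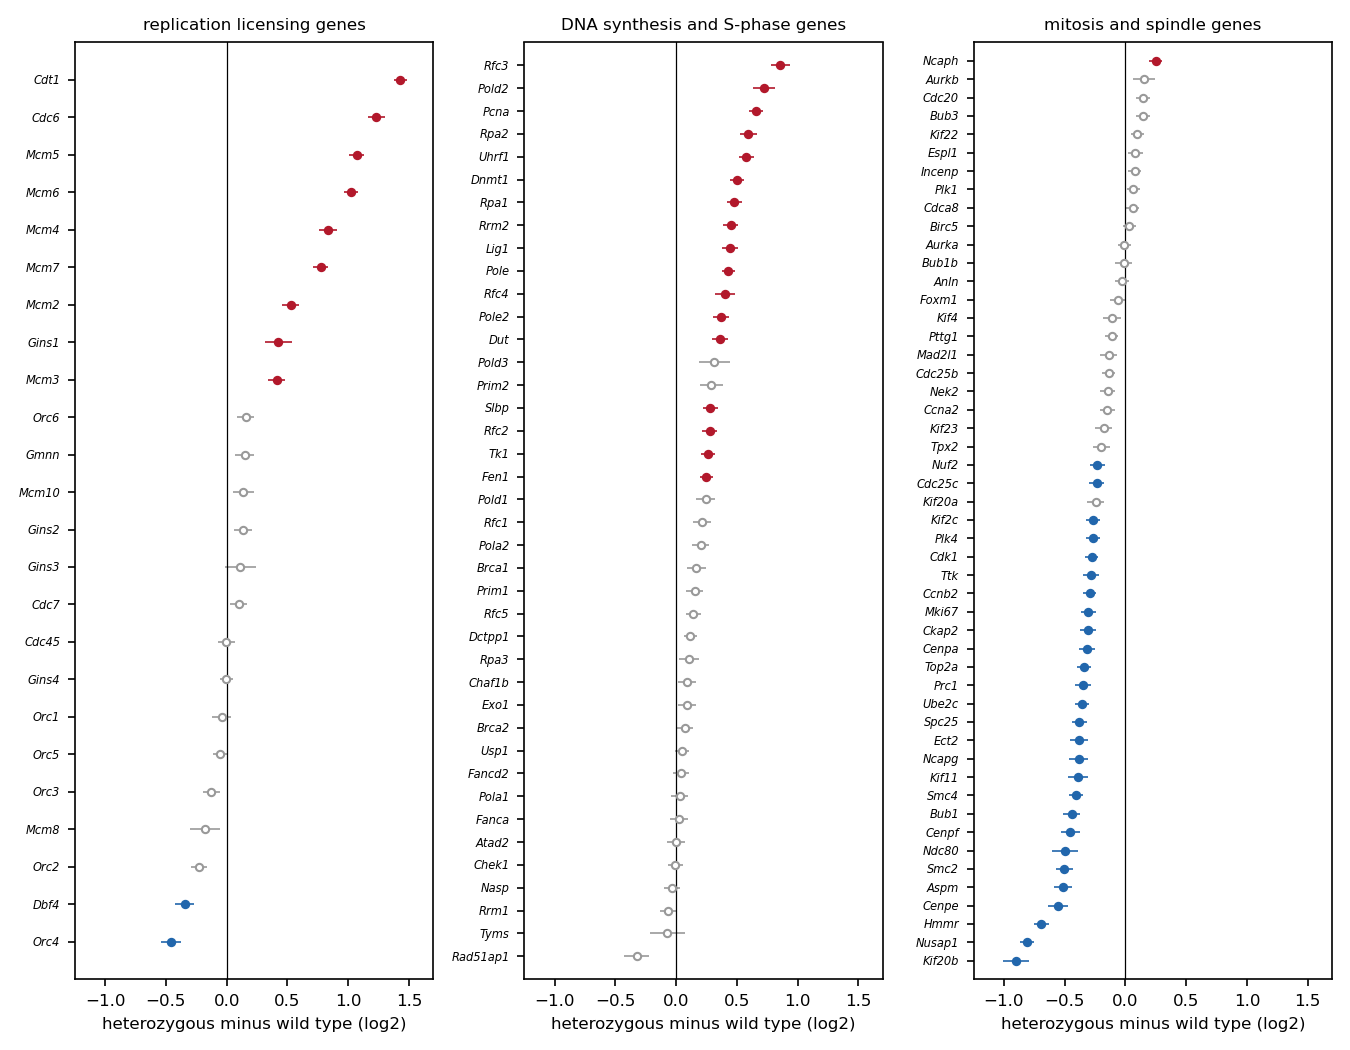
Heterozygous minus wild-type difference (log2, x axis) for each measured gene of 3 lists, with points for the fitted difference and bars for its SE, filled red where called higher, filled blue where called lower and open where not called. The Mcm genes, Cdc6 and Cdt1 lie to the right in the licensing panel, and 27 of 50 genes in the mitosis panel are called on the left.

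Genes that brake the cycle were also called mostly lower. Of 17 CDK inhibitors and Gadd45, Btg and Tob genes, 8 fell and 1 rose, with a median of -0.14. That is 52.9% called, against 11.8% of all genes. Gadd45a, induced by stress and by withdrawal from the cycle, fell from 9.59, 9.60 and 9.64 to 8.70, 8.68 and 8.69, which is -0.92 ± 0.06 (adjusted p = 9.3e-06). The inhibitors Cdkn1b (p27) and Cdkn2d (p19) fell by 0.47 and 0.46, and the antiproliferative Btg2 by 0.43. The rise was in Cdkn1c (p57), an imprinted inhibitor, by 0.45 ± 0.08. The arrays of these 5 genes, which were named for their calls, did not overlap between the genotypes, as in 29.9% of all genes.

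Several groups that feed growth had more rises than falls. Of 21 glycolytic enzymes 7 rose and none fell (33.3% called, against 11.8% of all genes), with a median of 0.12. Tpi1 rose from 8.96, 8.97 and 9.02 to 9.67, 9.67 and 9.71, or 1.62-fold (adjusted p = 1.86e-05), and all 3 of its probe sets were called. Aldoa, Pgk1 and Pgam1 rose by 0.46 to 0.47. Hk1 and Pklr, the hexokinase and pyruvate kinase of red cells, differed by -0.11 and 0.02, neither called. Sugar and lactate carriers changed in both directions. Slc2a1 (Glut1), the glucose carrier of the red cell membrane, fell from 10.63, 10.74 and 10.71 to 9.71, 9.66 and 9.81, which is -0.96 ± 0.07 (adjusted p = 1.87e-05), and its other 2 probe sets fell by 1.20 and 1.23. Slc2a3 (Glut3) rose by 0.64 ± 0.06, and the monocarboxylate carrier Slc16a1 fell by 0.52.

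Of 29 genes for nucleotide and one-carbon metabolism 14 rose and 1 fell, with a median of 0.24 (51.7% called, against 11.8% of all genes). The purine enzyme Atic rose from 7.47, 7.34 and 7.34 to 8.10, 8.10 and 8.11 (0.72 ± 0.06, adjusted p = 2.87e-05), although its other probe set differed by -0.08. Nme1, Shmt2, which makes one-carbon units in mitochondria, and Ctps, which makes CTP, rose by 0.58, 0.55 and 0.55. Psph, of serine synthesis, fell by 0.31. Of 19 aminoacyl-tRNA synthetases, which charge tRNAs, 10 rose and none fell (52.6% called). Their median was 0.21, with Vars highest at 0.60. The count of rises was 6 without wild-type replicate 2 or 3 or heterozygous replicate 1 or 2. Of 40 ribosome biogenesis genes 14 rose and 1 fell (37.5% called), with a median of 0.17. Fbl, the methylase that marks ribosomal RNA, rose from 8.11, 8.21 and 8.11 to 8.70, 8.70 and 8.68 (0.56 ± 0.06, adjusted p = 0.000114), and Nhp2 and Nop10, which guide pseudouridylation, rose by 0.51 and 0.43. Myc, the regulator of many of these genes, rose by 0.27 (adjusted p = 0.0304), a call lost without wild-type replicate 1 or 2, without heterozygous replicate 1 or 2, and with the replicate block.

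Mitochondrial translation genes had more rises than falls. Of 70 mitochondrial ribosomal proteins 28 rose and 4 fell (45.7% called, against 11.8% of all genes), with a median of 0.17. None of the 70 was below the array median in both genotypes. In the highest of the 4 level groups of all genes 32.3% were called. Mrps34 rose from 7.46, 7.42 and 7.36 to 8.13, 8.13 and 8.13 (0.72 ± 0.06, adjusted p = 1.9e-05), and Mrpl52, Mrps18b and Mrps17 by 0.67, 0.65 and 0.58. The 4 that fell, Mrpl27, Mrpl47, Mrps22 and Mrps31, fell by 0.28 to 0.31, and 1 or 2 of them were left without wild-type replicate 1, 2 or 3 or heterozygous replicate 1 or 3. Subunits of oxidative phosphorylation went both ways, with 16 of 69 higher and 9 lower (36.2% called). Atp5g2, of the ATP synthase ring, rose by 0.53 ± 0.07, and Ndufb5 of complex I by 0.46, while Cox6c of cytochrome oxidase fell from 12.29, 12.29 and 12.27 to 11.76, 11.76 and 11.70 (-0.54 ± 0.05, adjusted p = 9.86e-05). The 9 falls became 5 without wild-type replicate 1 or 2 or heterozygous replicate 1 or 2. Import and chaperonin genes had 5 of 24 higher, led by Hspe1 at 0.65, and 1 lower (25.0% called). Cytosolic ribosomal proteins had 5 of 40 higher and none lower, with a median of 0.03, and translation initiation factors 6 of 38 higher and 3 lower. Those ribosomal proteins had 9 calls after quantile normalization and 3 after scaling to reference genes, with the replicate block or without any single wild-type or heterozygous array. Proteasome subunits had 2 of 37 higher and 4 lower (16.2% called). Of those 4 falls 1 or 2 were left without any single wild-type or heterozygous array.

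**Figure D3:**
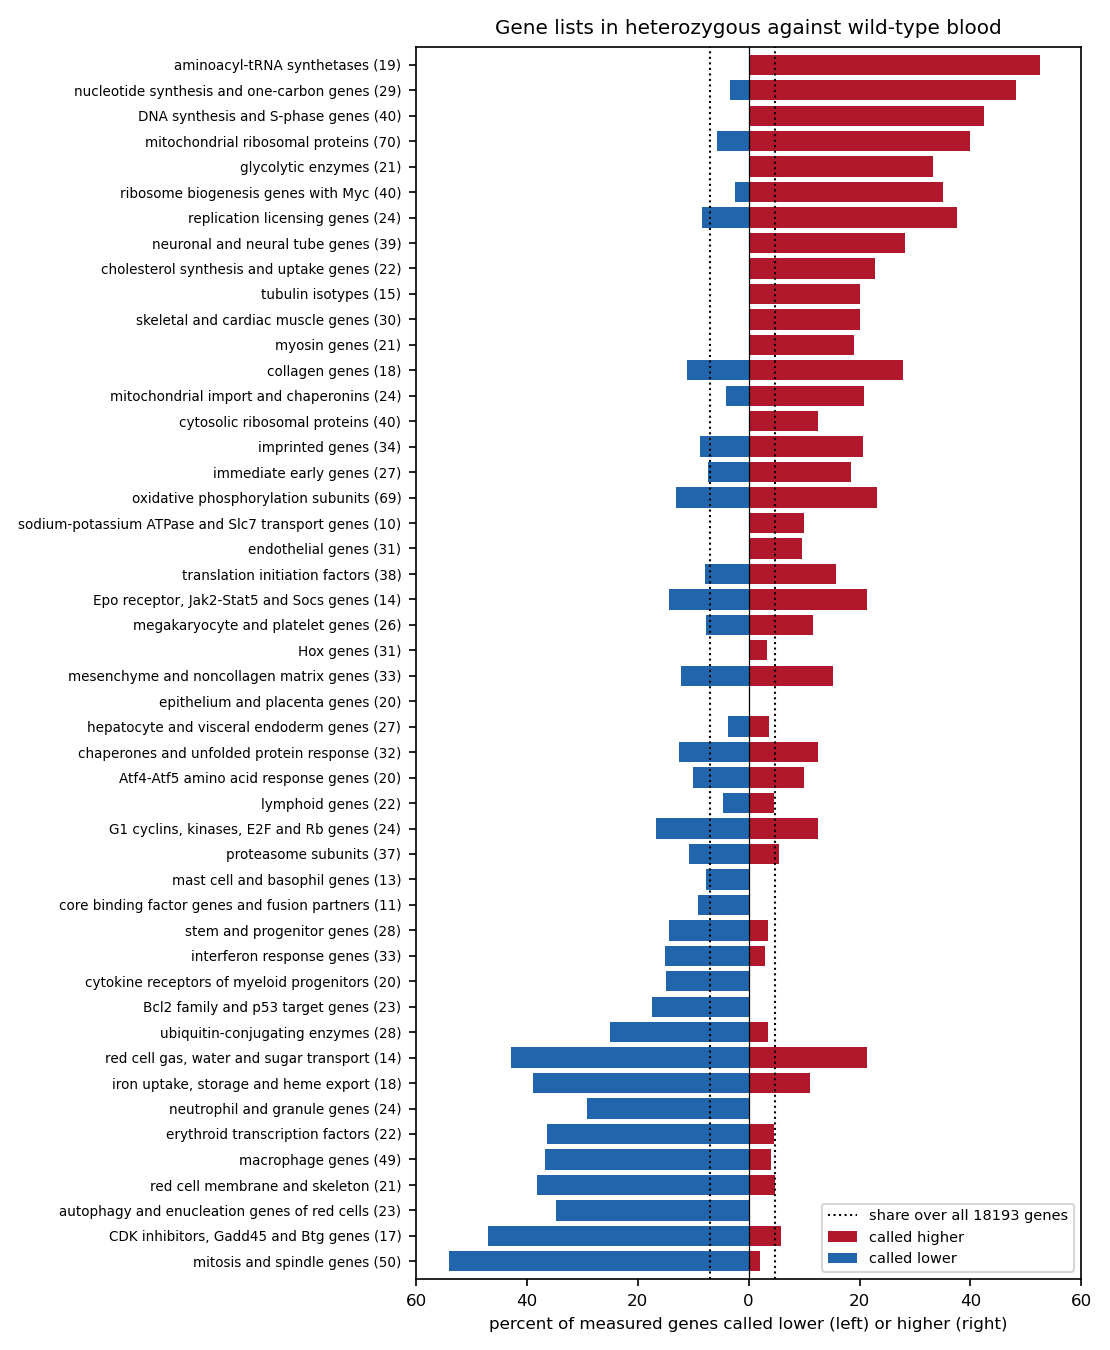
Percent of the measured genes of each list called higher (red, right) or lower (blue, left) in heterozygous against wild-type blood, for lists with 10 or more measured genes, whose number stands in brackets. Dotted lines mark the shares over all 18193 genes, 4.79% higher and 7.04% lower, and the synthetases lie at the top and mitosis genes at the bottom.

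Globin genes of the embryonic cells differed little. The 3 embryonic globins differed by -0.01 to 0.01 and were not called, and Hbb-bh1, the most abundant, was at 14.38, 14.38 and 14.37 in wild-type and 14.38, 14.36 and 14.39 in heterozygous arrays. Levels this close to the top of the array's range compress differences. Among 3 adult globins Hba-a2 fell by 0.42 (adjusted p = 0.000381), and Hba-a2 and Hba-a1 are near-identical copies that probes cannot fully separate. Of 8 heme synthesis enzymes, Uros fell by 0.52 by both of its probe sets, and Alas2, which sets the rate of the pathway, differed by -0.08 (adjusted p = 0.501).

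Iron and membrane genes of red cells had more falls than rises. Of 18 genes for iron uptake, storage and heme export 7 fell and 2 rose, with a median of -0.12. Tfrc, the transferrin receptor, fell from 11.07, 11.13 and 11.20 to 10.62, 10.66 and 10.64 (-0.49 ± 0.06, adjusted p = 0.000239), by all 3 probe sets. The heme exporter Flvcr1 fell by 0.69 and the mitochondrial glycine carrier Slc25a38 by 0.50, while ferritin heavy chain, Fth1, differed by 0.01. Of 21 membrane and skeleton genes 8 fell and 1 rose (42.9% called), with a median of -0.17. The falls numbered 5 without wild-type replicate 3. Cd47, the marker that keeps macrophages from eating red cells, fell from 9.78, 9.74 and 9.72 to 8.94, 8.91 and 8.88, or 1.78-fold (adjusted p = 6.77e-06), though 2 of its 5 probe sets differed by -0.07 and 0.00. The scaffold protein Mpp1 fell by 0.67 ± 0.06, stomatin (Stom) by 0.45 and tropomodulin (Tmod1) by 0.44. The anion exchanger Slc4a1 (band 3), at 12.74 in wild type, differed by -0.04 and was not called. Of 14 genes of gas, water and sugar transport 6 fell and 3 rose (64.3% called). Car2, the main carbonic anhydrase here, differed by -0.12, uncalled.

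Of 22 erythroid transcription factors 8 fell and 1 rose (40.9% called, against 11.8% of all genes), with a median of -0.13. Lmo2, the bridge of the Tal1 and Gata1 complex, fell from 8.44, 8.47 and 8.44 to 7.73, 7.74 and 7.59 (-0.76 ± 0.07, adjusted p = 4.7e-05). Its partners Ldb1 and Tal1 fell by 0.39 and 0.30, and Mafk and Bach1, which pair to repress globin genes until heme binds Bach1, fell by 0.40 and 0.39. Klf1, the erythroid activator, was at 11.98 ± 0.03 in wild-type and 11.99 ± 0.03 in heterozygous blood (SD, n = 3 each). Gfi1b, a repressor needed for red cells and megakaryocytes, rose by 0.23, a call lost without wild-type replicate 2 or 3 or heterozygous replicate 1 or 2. Of 14 genes of erythropoietin signalling 3 rose and 2 fell (35.7% called). Jak2 fell by 0.54 and Epor by 0.27, whereas Cish, a target and inhibitor of Stat5, rose from 7.70, 7.67 and 7.63 to 8.23, 8.29 and 8.23 (0.58 ± 0.06, adjusted p = 0.000198). Of 23 genes for the clearing of organelles and the loss of the nucleus 8 fell and none rose (34.8% called). The median was -0.12. The falls included Trim10 (-0.53 ± 0.05), Ube2o, which clears ribosomes (-0.52 ± 0.06), Atg5 (-0.51 ± 0.06) and Riok3 (-0.45 ± 0.06).

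Macrophage genes were called mostly lower. Of 49 measured 18 fell and 2 rose (40.8% called, against 11.8% of all genes), with a median of -0.13. The sum of their linear levels ran from 11946 to 12253 in wild-type and from 9418 to 9491 in heterozygous arrays, and from 5605 to 5743 in homozygous ones. The lysozymes Lyz1 and Lyz2 fell by 1.36 ± 0.10 and 1.15 ± 0.07, but they are close paralogs whose probes may share signal. The protease Ctss fell from 6.90, 7.11 and 6.89 to 5.87, 5.95 and 5.87 (2.10-fold, adjusted p = 3.46e-05), and the lipid carrier Apoe from 8.22, 8.24 and 8.15 to 6.93, 6.93 and 6.95 (2.41-fold, adjusted p = 3.66e-06). Csf1r, the receptor on which macrophages depend, fell from 9.62, 9.59 and 9.64 to 9.06 in all 3 arrays (-0.56 ± 0.07), and its 3 probe sets were all called lower. Arrays did not overlap for any of these genes, which were named for their calls, as in 29.9% of all genes. Selenop fell by 0.95, Ms4a7 by 0.81 and Mpeg1, the perforin-like protein of macrophages, by 0.70. Ctsd, a lysosomal protease found in most cells, differed by -0.12, uncalled. The 2 rises, Laptm5 by 0.32 and the scavenger receptor Stab1 by 0.26, were not stable calls. Laptm5 was lost without any single wild-type array or heterozygous replicate 2, and Stab1 without any single wild-type or heterozygous array or homozygous replicate 2. Itgam, Cd163, Cd36, Tlr7 and Cybb stood below the array median in both genotypes. Whether the number of macrophages in the blood moves these values was not tested.

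The promoter of Lyz2 is shown since core binding factor is a known regulator of myeloid genes through the Runx letters TGTGGT. It is chr10:117282273-117282522, minus strand on the same build, drawn in the same way, with the match, ACCACA on this strand, in capitals.
Lyz2: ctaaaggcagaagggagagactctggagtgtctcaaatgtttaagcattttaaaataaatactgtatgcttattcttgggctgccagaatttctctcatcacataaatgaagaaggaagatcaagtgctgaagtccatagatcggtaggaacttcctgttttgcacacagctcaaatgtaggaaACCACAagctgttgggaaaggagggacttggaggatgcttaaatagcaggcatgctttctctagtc
The letters were in 6 of 35 macrophage genes with a promoter in the table (17.1%). They were in 13.7% of the array genes with a promoter there and in 15.9% of all genes with one. They were also in 5 of 19 licensing genes (26.3%), and not in the windows of Lyz1, Ctss and Apoe, so Lyz2 is an example and not typical of the list.

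Granule genes were called in 1 direction. Of 24 neutrophil and granule genes 7 fell and none rose (29.2% called, against 11.8% of all genes), with a median of -0.12. The falls numbered 4 without wild-type replicate 1 and 3 without heterozygous replicate 1. S100a8, a calcium-binding protein of neutrophils and monocytes, fell from 6.17, 5.82 and 5.85 to 4.60, 4.58 and 4.70 (2.50-fold, adjusted p = 2.87e-05). Its partner S100a9 fell by 0.94 ± 0.15, with 4.74, 4.17 and 3.95 in heterozygous arrays. Myeloperoxidase, Mpo, fell from 7.86, 7.81 and 7.79 to 7.05 in all 3 arrays (-0.77 ± 0.10), and the protease Prtn3 by 0.52, a call lost without wild-type replicate 1 or heterozygous replicate 1 or 3. Of 13 mast cell genes Cpa3 was called (7.7%, against 11.8% of all genes), at -0.65 (adjusted p = 0.0212). That call was lost without wild-type replicate 2 or 3 or heterozygous replicate 2 or 3.

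Megakaryocyte genes went both ways. Of 26, 3 rose and 2 fell (19.2% called, against 11.8% of all genes), with a median of 0.09. Without homozygous replicate 1, 7 rose. Pf4, a platelet chemokine, was at 8.99 in all 3 wild-type arrays and rose to 9.51, 9.48 and 9.53 (0.52 ± 0.10, adjusted p = 0.00701). Alox12 rose by 0.45 ± 0.07. Vwf differed by 0.38 (adjusted p = 0.0476) and was not called under any of 4 other scalings. Srgn, the granule proteoglycan shared with other myeloid cells, fell by 0.55, and Cd9 by 0.24, the latter lost without any single wild-type or heterozygous array. Itga2b and Tubb1 differed by 0.04 and -0.11, uncalled.

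Of 28 stem and progenitor genes 4 fell and 1, Myc, rose, which is 17.9% called against 11.8% of all genes. Myb, the regulator of definitive progenitors, fell from 5.70, 5.31 and 5.18 to 4.33, 4.20 and 4.02 (2.31-fold, adjusted p = 0.000854), while its other probe sets differed by -0.70 and -0.30, uncalled. Ptprc (CD45) fell from 5.13, 4.79 and 4.95 to 4.35, 4.33 and 4.13 (-0.69 ± 0.11), with its other probe set at 0.17. Cd34 and Cd48 fell by 0.50 and 0.39, and Cd48 was not called without wild-type replicate 1 or 2 or any single heterozygous array. Of 20 cytokine receptors of myeloid progenitors 3 fell and none rose. Csf2rb, the shared beta chain of the Il3, Il5 and GM-CSF receptors, fell from 9.57, 9.59 and 9.61 to 8.92, 8.89 and 8.91 (-0.68 ± 0.06, adjusted p = 2.87e-05) and by both probe sets. Of 22 lymphoid genes Ptprc fell and Igll1 rose (9.1% called), the latter a call lost without any single wild-type or heterozygous array.

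The largest fitted difference was in Lyve1, a hyaluronan receptor of lymphatic and some other endothelium and of tissue macrophages. It went from 3.86, 3.83 and 3.73, below the array median, to 6.87, 6.84 and 6.66 (2.98 ± 0.07, adjusted p = 2.76e-09). No background measure was used, so the size of a change from so dim a level is uncertain. Its other probe set, at 4.40 ± 0.06 in wild type, differed by 0.29 and was not called (adjusted p = 0.127). In homozygous arrays it stood at 2.92, 3.08 and 3.00, below both genotypes (homozygous minus heterozygous -3.79, adjusted p = 5.31e-11). Of 31 endothelial genes Lyve1, Stab1 and Vwf were called higher and none lower, which is 9.7% called against 11.8% of all genes. The sum of this list, Lyve1 included, ran from 1056 to 1078 in wild-type and from 1207 to 1235 in heterozygous arrays. No sum was taken without Lyve1, so that gap may be largely its own and is no measure of the list. Of the 31 genes, 8 were below the array median in both genotypes, among them Pecam1, Tek, Tie1 and Emcn. The brightest in heterozygous blood were Stab1, Lyve1 and Eng. Of the 3 calls 1 was left without any single wild-type array, heterozygous replicate 1 or 3 or homozygous replicate 2.

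Some genes of muscle, nervous tissue and mesenchyme rose. Of 30 muscle genes 6 rose and none fell, with a median of 0.07. Actc1, cardiac alpha actin, which embryonic skeletal muscle also makes, went from 4.96, 4.85 and 5.03 to 7.33, 7.50 and 7.50, a 5.65-fold rise (2.50 ± 0.07, adjusted p = 5.86e-09). The muscle factor Myog rose by 0.62 ± 0.12 and the light chain Myl1 by 0.60 ± 0.08. The summed level ran from 837 to 867 in wild-type and from 1057 to 1082 in heterozygous arrays. Most of that gap was Actc1, without which the sums ran from 808 to 835 and from 892 to 901, a split chosen after the values were seen. Myod1, Myf5, Myh3, Myh6, Myh7, Myl2 and Tnnt2 stood below the array median in both genotypes, 13 of the 30 in all. Against heterozygous arrays, Actc1 was lower in homozygous ones by 2.08 (adjusted p = 4.24e-09).

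Of 39 neuronal and neural tube genes 11 rose and none fell (28.2% called, against 11.8% of all genes), with a median of 0.14. Nnat, an imprinted proteolipid of neurons, rose from 4.85, 4.40 and 4.83 to 6.15, 6.29 and 5.90 (2.67-fold, adjusted p = 3.91e-05), and Crabp1, which binds retinoic acid, from 4.19, 4.42 and 4.20 to 5.43, 5.64 and 5.39 (2.33-fold, adjusted p = 1.2e-05). Marcksl1, a substrate of protein kinase C made by many embryonic cells, rose by 1.26 ± 0.08. The neuronal tubulins Tubb2b and Tubb3 rose by 1.20 ± 0.07 and 0.80 ± 0.13, and the transcription factor Zic1 by 0.91 ± 0.14. The summed level was 4251 to 4310 in wild-type and 4558 to 4675 in heterozygous arrays. The brightest members were Stmn1, Marcksl1 and Nes. No sum was taken without them, so that gap is no measure of the whole list. Snap25, Map2, Nefm, Neurod1 and Sox2 were among the 13 below the array median in both genotypes. Itpka, a kinase of inositol trisphosphate best known from neurons, rose by 1.18 ± 0.07 and stayed high in homozygous blood, where it differed from heterozygous blood by 0.22 (adjusted p = 0.0774).

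Of 18 collagens 5 rose and 2 fell (38.9% called, against 11.8% of all genes). Col3a1, Col1a2 and Col5a2, chains of fibrillar collagens, rose by 0.93 ± 0.10, 0.53 ± 0.07 and 0.51 ± 0.09, and Col2a1 and Col5a1 by 0.41 and 0.30, with Col3a1 going from 6.27, 6.23 and 6.19 to 7.19, 6.98 and 7.32. Col1a1, the partner chain of Col1a2, differed by 0.02. Col4a1 and Col4a2, chains of basement membrane collagen, fell by 0.48 ± 0.06 and 0.39 ± 0.06. Of 33 mesenchyme and noncollagen matrix genes 5 rose and 4 fell (27.3% called). Vimentin, Vim, rose by 0.82 ± 0.06 and Acta2 by 0.76 ± 0.11, while the laminin chains Lama1, Lamb1 and Lamc1 fell by 0.48, 0.41 and 0.30 and Sparc by 0.28. Of the 4 falls, 2 were left without wild-type replicate 2 or heterozygous replicate 1 or 2, and with the replicate block 8 genes of the list rose. Summed levels of the collagens, 1291 to 1331 and 1306 to 1325, overlapped. Outside the lists, the gap junction gene Gja1 rose by 0.98 ± 0.13 and Fstl1, a secreted glycoprotein, by 1.05 ± 0.15.

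Of 34 imprinted genes 7 rose and 3 fell (29.4% called, against 11.8% of all genes), with a median of 0.07. Mest rose from 5.18, 5.13 and 4.95 to 6.30, 6.38 and 6.49 (2.47-fold, adjusted p = 1.84e-05). Plagl1, a zinc finger factor, rose by 0.90 ± 0.09, Ndn by 0.82 ± 0.13, Dlk1 by 0.64 ± 0.07 and the growth factor Igf2 by 0.50 ± 0.06. Of 8 Ndn probe sets 5 were called higher. Plagl1 was read as raised by 1 of 3 probe sets. Phlda2, a placental growth restrictor, fell by 0.49, Gnas by 0.32 and Grb10 by 0.26. Markers of liver gave 1 rise and 1 fall among 27 (7.4% called, below the 11.8% of all genes; 3 falls without heterozygous replicate 1 and 2 without heterozygous replicate 2), with the fetal serum protein Afp at -0.51 ± 0.07 and the adaptor Dab2 at 0.47 ± 0.07. Of 31 Hox genes Hoxd10 rose by 0.40 (3.2% called). Whether other embryonic cells in the blood samples move these values was not tested.

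**Figure D4:**
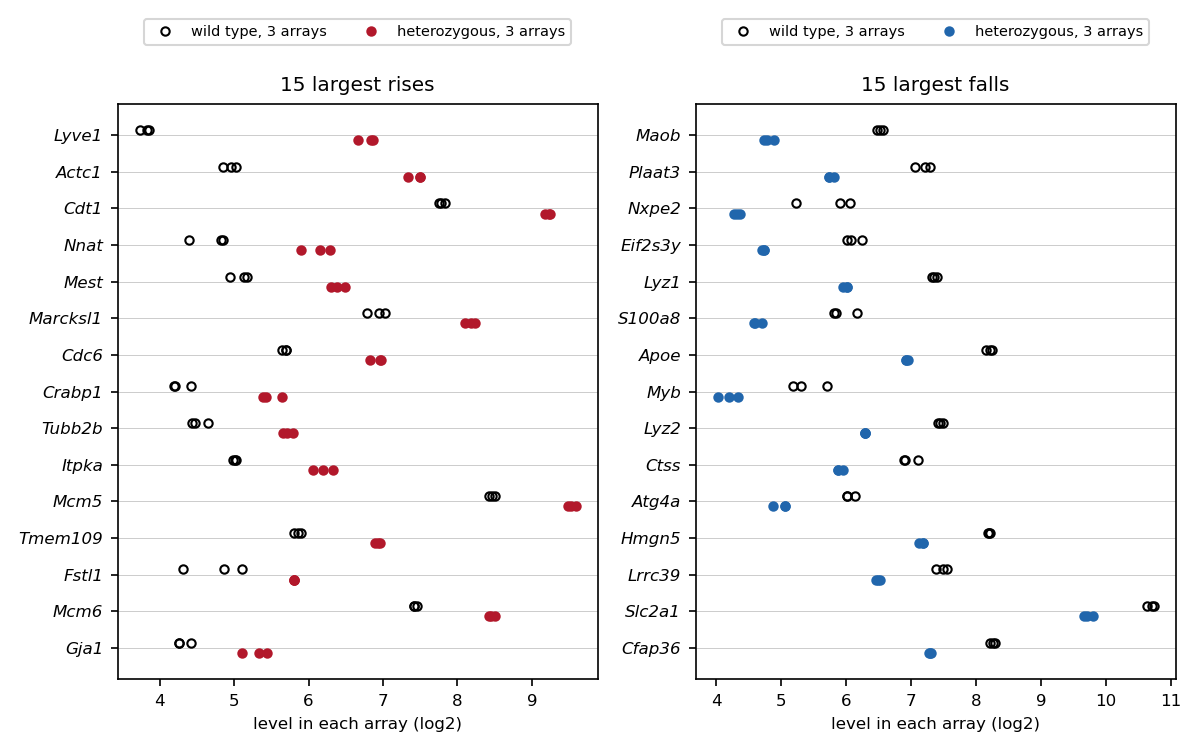
Level in each array (log2, x axis) of the 15 genes with the largest rises (left) and the 15 with the largest falls (right), with open circles for the 3 wild-type and filled circles for the 3 heterozygous arrays. The 30 genes were picked among called genes whose arrays do not overlap between the genotypes. The widest gap in the left panel is that of Lyve1 and in the right that of Maob.

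The largest fall was in Maob, a mitochondrial monoamine oxidase, which went from 6.52, 6.57 and 6.47 to 4.78, 4.73 and 4.89, or 3.31-fold (-1.72 ± 0.10, adjusted p = 2.95e-06). Plaat3, a phospholipase and acyltransferase, fell from 7.29, 7.22 and 7.06 to 5.74, 5.74 and 5.81 (2.69-fold, adjusted p = 2.33e-06), and by 1.57 in its other probe set. Nxpe2 fell by 1.41 ± 0.17, with its other probe set at 0.23. Atg4a, a protease of autophagy, fell by 1.06 ± 0.07, with its other probe set at 0.14. Hmgn5, a nucleosome-binding protein, fell from 8.19, 8.21 and 8.20 to 7.19, 7.19 and 7.13 (-1.03 ± 0.06). Lrrc39 and Cfap36 fell by 0.99 and 0.96. Tmem109 rose by 1.07 ± 0.06, and of its 5 probe sets 2 were called.

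Of 33 interferon response genes (18.2% called, against 11.8% of all genes) 5 fell and 1 rose, with a median of -0.13. The rise, in B2m, the light chain of class I MHC, by 0.22, was lost without wild-type replicate 1 or 3, without any single heterozygous array, with array medians or reference genes as the scale, and with the replicate block. Ifitm1 fell by 0.69, Oasl2 by 0.68 and Ifit1 by 0.66. The falls numbered 3 without wild-type replicate 2 or 3 or heterozygous replicate 1 or 2. Immediate early genes had 5 of 27 higher and 2 lower (25.9% called). The phosphatase Dusp6 was at 0.65 ± 0.07 and Klf6 at -0.44 ± 0.06, with all 5 Klf6 probe sets called lower. The rises numbered 2 or 3 without any single wild-type or heterozygous array. Cholesterol genes had 5 of 22 higher (22.7% called), led by Fdps at 0.44, and 2 to 3 without any single wild-type or heterozygous array. Of 28 ubiquitin-conjugating enzymes 7 fell and 1, Ube2d1, rose (28.6% called). The Ube2d1 call was lost in 13 of 18 settings, among them leaving out any single wild-type or heterozygous array. Chaperones had 4 of 32 higher, all subunits of the chaperonin CCT (Cct2, Cct3, Cct7 and Tcp1). Another 4 were lower (Hspa5, Hsp90b1, Calr and Dnaja1), which makes 25.0% called. Of the falls 0 or 1 was left without any single wild-type or heterozygous array. Of 23 apoptosis and p53 target genes 4 fell, by 0.20 to 0.47 (17.4% called). Of these 1 or 2 were left without any single wild-type or heterozygous array. Of 21 myosins 4 rose, among them the nonmuscle heavy chains Myh10 by 0.48 and Myh9 by 0.30, and 2 were left without wild-type replicate 1 or 2 or heterozygous replicate 3. Atp1b2, a beta subunit of the sodium pump, rose from 7.25, 7.37 and 7.39 to 8.15, 8.15 and 8.08 (0.79 ± 0.07, adjusted p = 4.14e-05) by both probe sets.

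Of 6 measured sex-linked transcripts 1 rose and 1 fell (33.3% called, against 11.8% of all genes). Xist, made from the inactive X chromosome, rose by 0.97 ± 0.06 by its brightest probe set, from 8.92, 8.89 and 8.86 to 9.85, 9.88 and 9.84. Its dimmer probe sets differed by 0.28, called, and by 0.12, uncalled. The Y-linked gene Eif2s3y fell from 6.02, 6.25 and 6.07 to 4.73, 4.74 and 4.71 (-1.39 ± 0.07, adjusted p = 9.88e-07). The Y-linked genes Kdm5d and Uty differed by -0.00 and -0.03 by their brightest probe sets, uncalled, and the other probe set of Eif2s3y by 0.04. Kdm5d and Uty were dim, at 4.77 and 3.38 in wild type, where the array median was 4.27. Whether the proportion of male and female embryos moves other genes was not tested.

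Set beside homozygous blood, the genes with the largest changes were not alike. The genes were picked on the heterozygous arrays, which the direct test of homozygous against heterozygous blood shares, so its values are given side by side and not as independent support. In that test 2867 genes (15.8%) were called. Some genes did not pass that direct test. Maob was at 4.80 in heterozygous and at 4.72, 5.18 and 4.85 in homozygous arrays (homozygous minus heterozygous 0.12 ± 0.10, adjusted p = 0.51). Plaat3, Slc2a1, Atg4a, Cdc6, Mcm5 and Ccnd2 differed between the genotypes with the allele by 0.02, 0.06, -0.05, 0.13, 0.14 and 0.09, none called. Another set fell further with the second allele. Apoe, Ctss, Csf1r and Gadd45a were lower in homozygous than in heterozygous blood by 1.57, 1.75, 2.92 and 0.76, all called. Other genes were highest with 1 allele. Lyve1, Gja1, Col3a1, Mest, Plagl1 and Marcksl1 were lower in homozygous than in heterozygous blood by 3.79, 2.21, 1.87, 1.76, 1.74 and 1.64, all called. Mcm4 and Mcm6 were lower in homozygous than in heterozygous blood by 0.62 and 0.33, unlike the other ring subunits, which were not called. Csf2rb fell with 1 allele and was higher again with 2, by 0.78 (adjusted p = 2.76e-06).

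**Figure D5:**
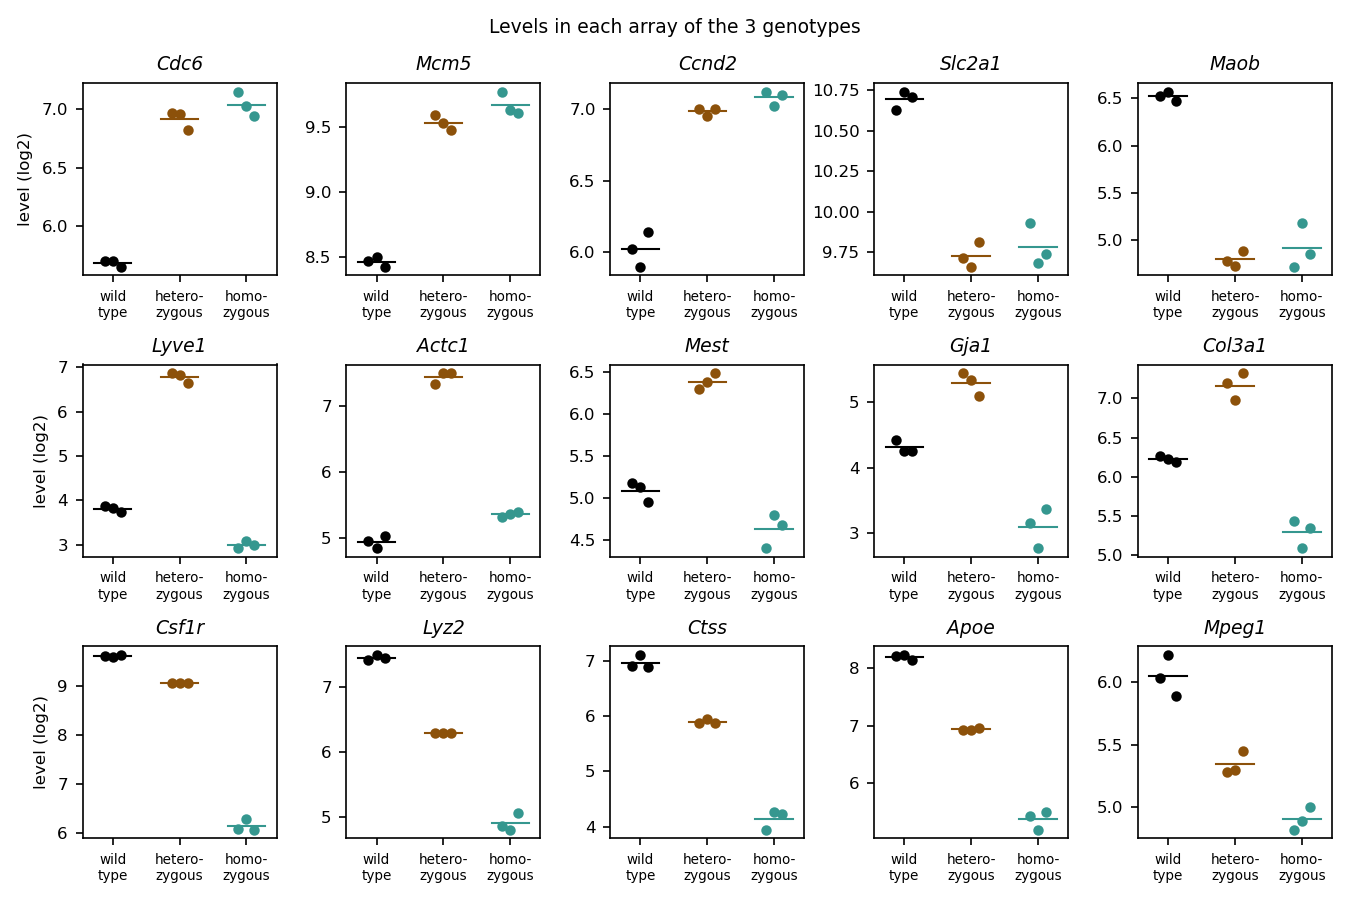
Level (log2, y axis, its range differing between panels) in each of the 3 wild-type, 3 heterozygous and 3 homozygous arrays for 15 genes, with lines at the means. In the upper row no gene was called between heterozygous and homozygous blood, in the middle row heterozygous arrays are highest, and in the lower row levels step down from wild type to homozygous.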

How the data were processed

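Pooled blood RNA was measured on 9 Affymetrix whole-genome mouse arrays, 3 per genotype. The authors deposited 1 value per probe set and array, and the submitters' processing notes list RMA, Partek 6.5 and Affymetrix Expression Console 1.0 without saying what each did. The unit is not stated. The deposited values, between 1.49 and 14.56, were treated as log2. Of 45101 probe sets, 64 controls were left out and 45037 tested. Of the tested ones 34945 have 1 gene symbol, 932 several and 9160 none in the platform table used here. Each gene is represented by its brightest probe set on average.

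All 9 arrays were fitted by genotype by moderated linear models (limma 3.58.1, R 4.3.3), 2-sided, with Benjamini-Hochberg adjustment over all tested probe sets and a threshold of 0.05. Genes differing between genotypes without a call are given as values. No intensities, counts or background flags were used, so precision is limited by how few arrays there are. The fit was tested on simulated data.

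The genes named are the 15 largest rises and 15 largest falls among called genes whose arrays did not overlap, then Cbfb, Runx1, Runx3 and Myh11, and from each list up to 4 called genes per direction and up to 2 uncalled ones of high level. Further list members were named after their values were seen. The members and lists were chosen with earlier results of these data known. Alternatives were other scalings, filters, thresholds, fits and gene rules, the replicate number as a block, and leaving out each array. Deviations of wild-type and heterozygous arrays correlated at r of -0.01 to 0.07 for the 3 same-numbered pairs. For the 6 differently numbered pairs r was -0.06 to 0.03. So few pairs cannot decide if the numbers pair the arrays, and they were not taken as pairs in the main fit. Promoters are those of RefSeq on GRCm38.p6.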

Additional observations from a re-analysis of the deposited data

Results flagged for a closer look

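The poly-A spike-in probe sets lie outside the comparison of mouse genes, and their level differed between the genotypes. They were higher in heterozygous than in wild-type arrays by 0.88 on the log2 scale over 24 probe sets, with single probe sets at 0.48 to 1.10. In homozygous arrays their mean was 11.96 ± 0.02 (SD, n = 3). The hybridization spike-ins, added after labelling, averaged 10.32 in both genotypes over 18 probe sets.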

How the results depend on the processing

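Named genes called in the main fit or in an alternative kept their direction in the alternatives run on single genes, which exclude the poly-A scaling. Changes of sign among uncalled genes, many of them close to no difference, were not counted. The 3855 called probe sets (1536 higher, 2319 lower) became 2153 (787 higher, 1366 lower) at a threshold of 0.01 and 59 (35 higher, 24 lower) with a 2-fold minimum. Scaling to the poly-A spike-ins gave 44962 called, 31 higher and 44931 lower, since it lowers every gene by a like amount. Leaving out single arrays gave 2665 to 4264 probe sets (998 to 1716 higher, 1607 to 2548 lower) and 1500 to 2357 genes (574 to 958 higher, 901 to 1399 lower). With the replicate block 3571 probe sets (1376 higher, 2195 lower) and 1985 genes were called, though it is not known if the numbers pair the arrays. The share of calls that were higher was 39.8% as deposited and 32.1% to 45.8% under the scalings to reference genes, medians, cyclic loess and quantiles. Leaving out probe sets with identical values in all arrays of a genotype, chosen after seeing the data, gave 3780 calls. Of 226 called genes among those named, 174 stayed called in all 18 settings run on them.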

Other observations

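Genes read by several probe sets give a check within the array. Of 4315 genes with 3 or more probe sets, 21 had every probe set called higher, among them Tpi1, Mcm5, Mcm7, Cdk4, Paics, Apex1 and Dnmt1. Another 41 had every probe set called lower, among them Slc2a1, Uba3, Dynlt3, Lamp2, Smc4, Klf6, Cd55, Csf1r, Tfrc and Bpgm. Among 40 measured neighbours of Cbfb on its chromosome, 20 on each side, 1 was called higher and 1 lower, and the median difference was 0.01. Some probe sets held 1 identical value in all 3 arrays of a genotype, namely 651 for wild-type, 669 for heterozygous and 317 for homozygous arrays, together 3.6% of those tested. They include Csf1r, Lyz2 and Mpo in heterozygous and Pf4 in wild-type arrays, so an SD of 0 there is not a measured spread.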
